A study of Mus musculus with 60 samples.

Results

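The genes described here are 43 interferon-stimulated and antigen presentation genes, taken by name and each read through the annotated Affymetrix mouse probe set whose mean across arrays was highest. They were divided by role into 6 interferon regulatory and signal factors, 7 interferon-inducible GTPases, 18 antiviral effectors and 12 genes of antigen processing and presentation. Of the 43, 41 had a probe set listed with that gene alone, and 40 of these were above the filter on dim probe sets, among 14513 genes tested. Isg15 and Psme2 were represented only by probe sets listed with several genes and were not analysed here. Mx1 stayed between 2.83 and 3.69 on the log2 intensity scale on all 60 arrays, below the filter, and was not tested. All levels below are deposited log2 intensities, so a difference of 1 is a 2-fold difference, and levels of different probe sets are not compared.

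Hepatocytes isolated from C57BL/6N males, 8 to 12 weeks old, were plated on collagen I and starved of serum for 24 h in medium with dexamethasone. They were then left unstimulated or given 40 ng/ml recombinant mouse hepatocyte growth factor (HGF), 40 ng/ml recombinant human interleukin-6 (IL-6), or both at once, and RNA was taken at 7 hours: 0.5 h, 2 h, 4 h and 8 h, then 16 h, 24 h and 32 h. Each of the 28 combinations of arm and hour had 2 arrays, and unstimulated cells at 0 h had 4. All arms shared the dexamethasone, and each preparation came from 1 animal or a pool of up to 3. Whether paired arrays stand for different animals is left unstated in the labels, so the p-values below measure only the spread between these arrays. RNA was taken from whole cultures, in which fewer cells of a type and less RNA per cell cannot be told apart.

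As background, type I interferons act on target genes through the interferon-stimulated response element (ISRE), with Stat2 and Irf9 among the factors that use it, and interferon gamma acts through the gamma-activated site (GAS). IL-6 acts through gp130 and mainly Stat3, whose dimers bind sites of the GAS type, while HGF acts through the receptor tyrosine kinase Met. Interferon target genes include GTPases that attack the vacuoles of intracellular pathogens, effectors that sense or degrade viral RNA, and the machinery that cuts proteins into peptides and loads them on MHC class I. Hepatocytes express MHC class I and respond to interferons, and IL-6 is the main inducer of the acute phase response in liver.

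Promoter sequence is shown for 8 members, to let the interferon-type motifs in the 250 bases before the transcription start be read beside the responses below. RefSeq windows (GRCm38.p6) were at hand for 34 of the 43 members. The ISRE was searched on both strands as GAAANNGAAA, and the GAS as TTCNNNGAA, which reads the same on both strands. These patterns differ, but both hold the letters GAA and their matches can overlap. The ISRE pattern was found in 14 of 34 members, or 41.2%, against 3.46% of all 27025 genes with a window and 2.98% of all 32851 windows of that length. The GAS pattern was found in 10 of 34, or 29.4%, against 8.13% of genes and 7.02% of windows. By role, either pattern was found in 5 of 5 GTPases with a window, 4 of 6 regulators, 8 of 13 antiviral genes and 2 of 10 antigen presentation genes. These are matches of letters and not measured binding sites.

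The 150 bases before the start are printed 5′ to 3′ on the gene's strand, with matches in capitals. Irf1 has a GAS match and was the regulator that rose with IL-6 at every hour. Irf2 and Irf8 also have a GAS match, and Irf8 was not called with IL-6. Stat2 and Irf9 rose with IL-6 and have no GAS match. The 4 GTPases shown hold an ISRE, Ifit1 holds a pair of ISRE matches, and B2m and Psmb8 are the 2 of 10 antigen presentation members with a match. Whether a match goes with a response was not tested.
Irf1 (chr11:53769864-53770013, plus strand): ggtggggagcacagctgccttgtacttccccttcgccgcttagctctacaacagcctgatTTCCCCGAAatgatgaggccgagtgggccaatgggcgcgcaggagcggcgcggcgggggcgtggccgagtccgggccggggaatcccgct
Gbp7 (chr3:142530186-142530335, plus strand): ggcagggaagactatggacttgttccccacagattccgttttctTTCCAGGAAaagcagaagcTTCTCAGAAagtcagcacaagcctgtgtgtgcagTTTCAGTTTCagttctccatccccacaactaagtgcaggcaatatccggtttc
Igtp (chr11:58199406-58199555, plus strand): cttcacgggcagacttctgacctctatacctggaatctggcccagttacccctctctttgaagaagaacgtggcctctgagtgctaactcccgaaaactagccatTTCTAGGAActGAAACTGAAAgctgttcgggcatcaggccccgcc
Irgm1 (chr11:48871421-48871570, minus strand): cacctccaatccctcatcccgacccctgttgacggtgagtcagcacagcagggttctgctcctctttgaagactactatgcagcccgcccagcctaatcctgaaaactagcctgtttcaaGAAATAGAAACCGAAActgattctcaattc
Gbp2 (chr3:142620513-142620662, plus strand): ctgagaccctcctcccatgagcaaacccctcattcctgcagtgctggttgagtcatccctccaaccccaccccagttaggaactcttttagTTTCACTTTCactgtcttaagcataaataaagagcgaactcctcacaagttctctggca
Ifit1 (chr19:34640739-34640888, plus strand): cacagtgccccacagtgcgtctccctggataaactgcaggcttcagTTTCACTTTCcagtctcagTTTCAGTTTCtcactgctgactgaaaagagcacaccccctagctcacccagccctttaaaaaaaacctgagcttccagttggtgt
B2m (chr2:122147537-122147686, plus strand): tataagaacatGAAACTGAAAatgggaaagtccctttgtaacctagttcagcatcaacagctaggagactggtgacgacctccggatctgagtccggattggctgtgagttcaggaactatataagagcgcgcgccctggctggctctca
Psmb8 (chr17:34198045-34198194, plus strand): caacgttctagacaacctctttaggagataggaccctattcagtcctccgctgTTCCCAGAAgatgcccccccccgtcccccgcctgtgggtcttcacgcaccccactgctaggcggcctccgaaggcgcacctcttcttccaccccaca

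In these windows the Irf1 GAS began 90 bases before the start, and the Gbp7 window held 2 GAS matches that began 106 and 87 bases before the start and an ISRE that began 53 before it. In Igtp a GAS and an ISRE lay 45 and 34 bases before the start. The 2 overlapping ISRE matches of Irgm1 began 30 and 24 bases before the start. The B2m ISRE began 139 bases and the Psmb8 GAS 97 bases before the start.

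Labels and arrays were checked before the comparisons. Of 12 hepatocyte markers, 11 had a probe set and 10 were above the filter. Albumin (Alb) stayed at 14.15 to 14.44, whereas Fabp1 spanned 5.71 to 12.08 and Cps1 6.81 to 12.2. By limma's moderated F-test over the 7 hours, 7 of the 10 were lower with HGF, 9 with IL-6, 9 with IL-6+HGF and 9 over time in unstimulated culture. Of all genes, 32.8%, 31.7%, 36.7% and 34.6% were lower in these comparisons. Of 12 Kupffer cell and macrophage markers, 11 were above the filter, and their summed level was 9.29 to 10.06 on unstimulated, 9.22 to 9.7 on HGF, 9.22 to 9.73 on IL-6 and 9.14 to 9.65 on IL-6+HGF arrays. By the same F-test, 1 of the 11 was higher and 6 lower with HGF, against 29.8% and 32.8% of all genes. With IL-6, 6 were higher and 2 lower, against 23.4% and 31.7%. Of 8 endothelial markers, all above the filter and summing to 8.81 to 9.65, 6 were lower with HGF and 5 higher with IL-6 than with HGF. Of all genes, 32.8% and 22.3% were. Of 11 lymphocyte markers 3 were above the filter, Cd3e, Cd79a and Il2rb, while Ptprc exceeded the filter level on 0 arrays, and 3 of 6 dendritic cell markers were above it. The part of these cell types in the results below was not tested. The 3′ minus 5′ signal of the labelling control dap ranged over 1.22 to 1.48 among the 10 arrays of unstimulated cells up to 4 h, and over 2.62 to 3.24 among 49 others, with IL-6 24 h replicate 1 at 3.72. Comparisons with unstimulated cells at 0.5 to 4 h therefore cross 2 labelling classes, whose part in the result was not tested, whereas comparisons between stimuli and those at 8 to 32 h stay within 1 class apart from that array. The hybridisation control bioB also differed by arm, including at 8 to 32 h. It was 8.04 to 8.38 on unstimulated arrays at all hours and 5.78 to 6.79 with HGF from 2 h on. With IL-6 it was 6.82 to 7.0 up to 8 h and 5.42 to 5.91 from 16 h, and with the combination 5.21 to 6.01. Its part in the results was not tested.

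Over the 7 hours, IL-6 raised more of the 40 tested members than HGF did. A gene was called where limma's moderated F-test over the 7 hours gave an adjusted p under 0.05 (Benjamini-Hochberg over all genes tested), with its direction taken at the hour of its largest difference. With IL-6, 22 members were higher and 12 lower than in unstimulated cells, where 23.4% and 31.7% of all genes were. With HGF, 7 were higher and 24 lower, against 29.8% and 32.8% of all genes. With IL-6+HGF, 20 were higher and 16 lower, against 31.3% and 36.7%. These 3 comparisons share the unstimulated arrays.

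Restricted to 8 to 32 h, where the labelling class is shared, 14 members were higher and 10 lower with IL-6 (18.7% and 23.3% of all genes), and 4 higher and 24 lower with HGF (27.2% and 27.9%). The combination gave 14 higher and 15 lower (28.5% and 28.7%). The comparisons between stimulated arms were counted over all 7 hours. Set against HGF directly, IL-6 gave 33 members higher and 4 lower, where 22.3% and 28.9% of all genes were, and Ifit3, Oas1a and Irf8 were not called. The combination gave 25 higher and 3 lower than HGF alone over the 7 hours, against 17.7% and 23.9% of all genes. It gave 4 higher and 16 lower than IL-6 alone, against 23.2% and 20.9%.

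**Figure D1:**
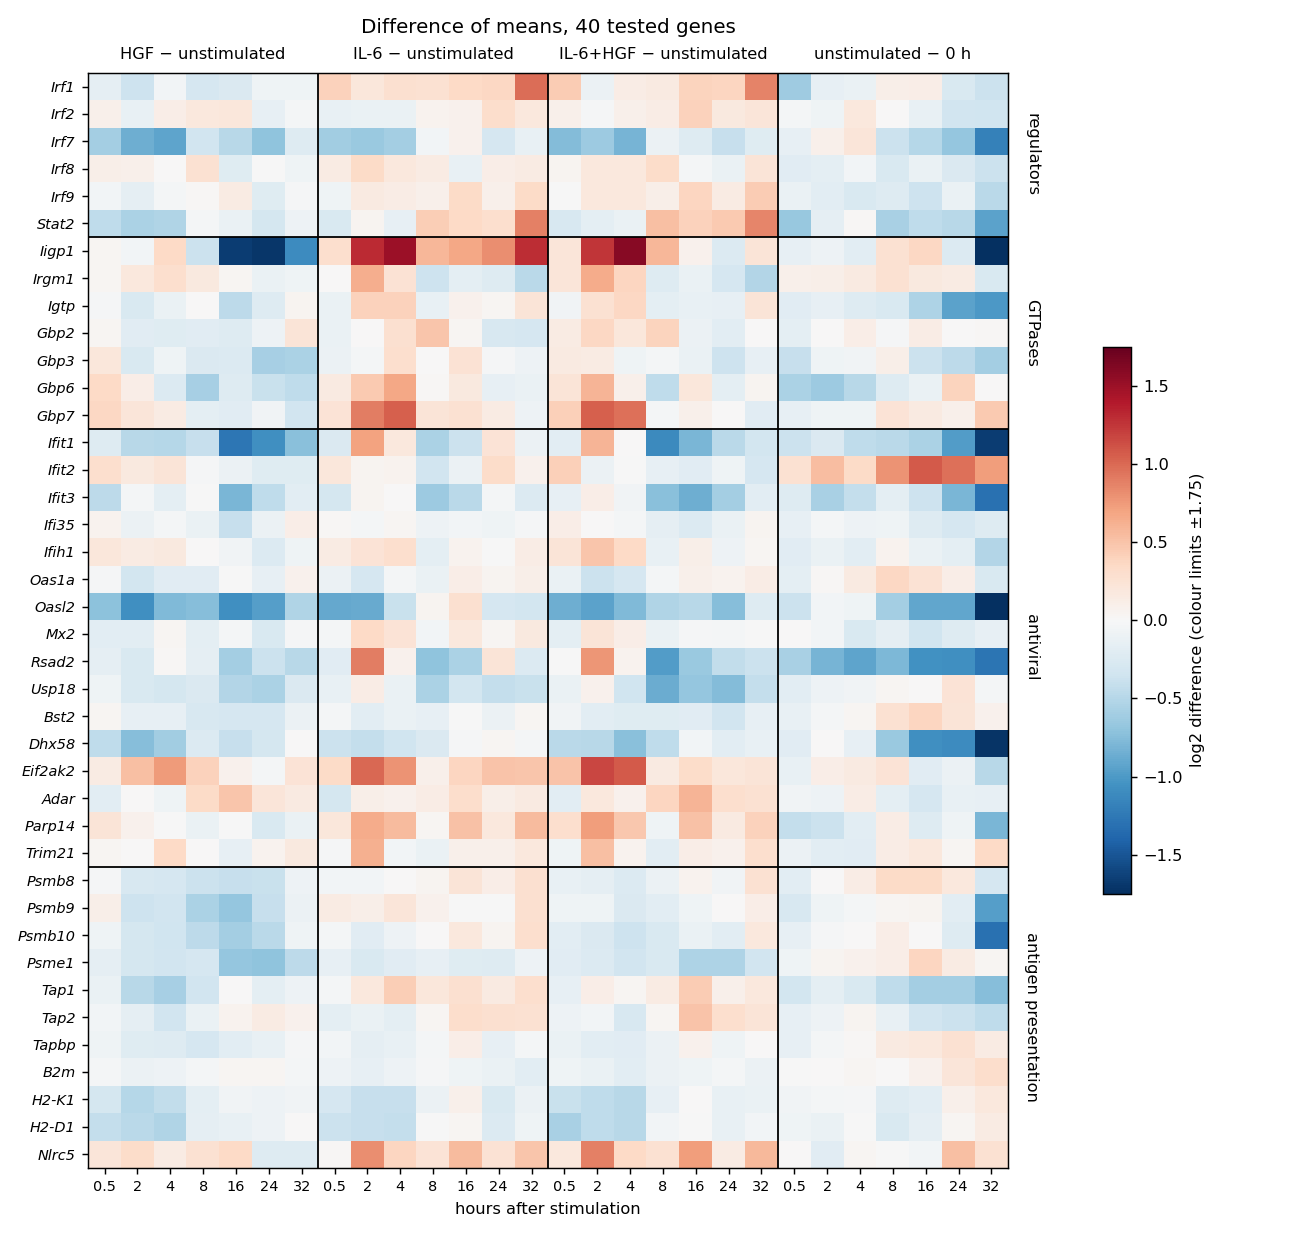
Difference from unstimulated cells in log2 intensity (colour) for the 40 tested members, in rows by role, at the 7 hours in the stimulated arms and against 0 h in unstimulated culture, in columns. Iigp1 is raised by 1.50 with IL-6 at 4 h and at -1.70 with HGF at 24 h, and most antigen presentation rows are below 0 with HGF.

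The ligands and receptors upstream of these genes were examined in lists fixed with the members. Of 8 interferon genes, 3 were above the filter, and 0 were called in either direction with HGF or IL-6 by limma's F-test, with 0 also at an unadjusted p under 0.05. Of the 3, 1 was called higher for IL-6 against HGF, and 1 lower for IL-6+HGF against unstimulated cells and 1 lower against IL-6. Of 25 receptor and signalling genes, 23 were tested. With IL-6, 10 were higher and 9 lower, against 23.4% and 31.7% of all genes. With HGF 8 were higher and 8 lower, near the 29.8% and 32.8% of all genes. Socs3, the feedback inhibitor of gp130 signalling, rose by 5.42 ± 0.09 (SE) at 0.5 h with IL-6 and by 0.92 at 2 h with HGF. Stat3 itself rose by 1.13 at 32 h with IL-6. The interferon gamma receptor chain Ifngr1 fell with both, by 0.49 with IL-6 and by 0.66 with HGF.

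Among the regulators, IL-6 raised Irf1, Irf2, Irf9 and Stat2 and lowered Irf7, while HGF raised 0 of 6 and lowered Irf1, Irf7 and Stat2. Of all genes, 23.4% were higher and 31.7% lower with IL-6, and 29.8% and 32.8% with HGF. Over 8 to 32 h, IL-6 again gave 4 higher and 1 lower, and HGF gave 1 higher, Irf2 (0.20 at 16 h, adjusted p = 0.047), and 2 lower. In that window the shares of all genes were 18.7% and 23.3% with IL-6 and 27.2% and 27.9% with HGF. Stat2 was not called with HGF in that window (adjusted p = 0.164), and its difference of -0.56 at 2 h crosses the labelling classes. From 4 to 8 h, Stat2 had a step of -0.57, its change in unstimulated cells less the mean change in the stimulated arms. Changes within the stimulated arms enter such a step. Irf1, a transcription factor that drives MHC class I and GTPase genes, was at 9.65 and 9.69 on the 2 IL-6 arrays of 32 h. It was at 8.73 and 8.65 in unstimulated cells, at 8.66 and 8.58 with HGF and at 9.51 and 9.61 with the combination. Both arms with IL-6 lay above both arms without it, with no overlap. The IL-6 difference was 0.98 ± 0.06 (SE), or 1.97-fold (adjusted p = 4.66e-18), and the difference was positive at all 7 hours, from 0.20 at 2 h upward. At 0.5 h it was already 0.41 (adjusted p at that hour 4.33e-06), with IL-6 arrays at 8.83 and 8.85 and unstimulated arrays at 8.38 and 8.48. With HGF Irf1 fell by 0.36 at 2 h, its largest difference (adjusted p = 1.7e-07).

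Stat2, a subunit of the interferon-activated complex, was at 6.58 and 6.62 with IL-6 and 6.54 and 6.6 with the combination at 32 h. Unstimulated cells then stood at 5.75 and 5.69 and HGF-treated cells at 5.61 and 5.65. The arms again split by the presence of IL-6, with a difference of 0.88 ± 0.12 from unstimulated cells (adjusted p = 9.41e-08). Irf9, its DNA-binding partner, rose by 0.33 at 32 h (adjusted p = 0.00043). Irf2, an antagonist of Irf1, was 0.31 higher with IL-6 at 24 h (adjusted p = 0.0127). That call was lost without IL-6 24 h replicate 1, the array that stood apart (adjusted p = 0.101), and without unstimulated 24 h replicate 2.

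Irf7, the amplifier of the type I interferon response, moved the other way. It differed from unstimulated cells by -0.92 with HGF at 4 h, -0.65 with IL-6 at 2 h and -0.82 with the combination at 4 h. The unstimulated arrays read 8.63 and 8.75 at 4 h and 8.14 and 8.09 at 8 h, across the step between labelling classes. From 4 to 8 h Irf7 changed by -0.62 more in unstimulated cells than on average in the stimulated arms, where the median size of that step over all genes was 0.15. Within 1 class, Irf7 fell by 0.70 with HGF at 24 h and was 0.56 higher with IL-6 than with HGF at 16 h (adjusted p = 1.29e-07). Irf8, a factor of myeloid and lymphoid cells, lay between 4.84 and 5.66 on all arrays and was called in none of these comparisons with unstimulated cells or between IL-6 and HGF.

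**Figure D2:**
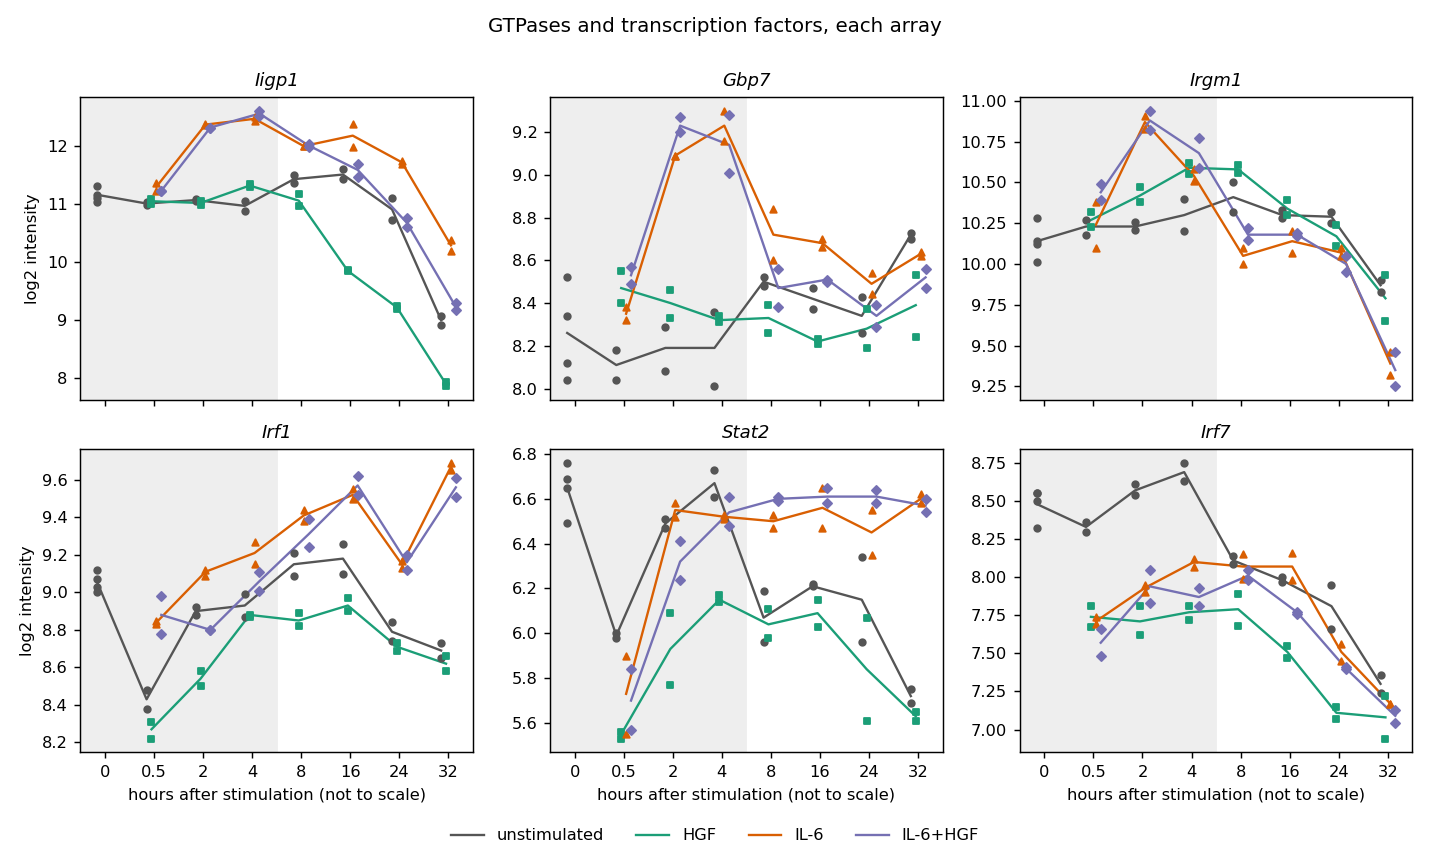
Log2 intensity (vertical axis) against hours after stimulation (horizontal axis) for Iigp1, Gbp7, Irgm1, Irf1, Stat2 and Irf7; points are single arrays, lines join the arm means, and grey marks 0 to 4 h, where unstimulated arrays have the other labelling class. The Irf1 and Stat2 arms split at 32 h by the presence of IL-6, and Iigp1 falls first with HGF, to 9.85 and 9.84 at 16 h.

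The GTPases rose early with IL-6. In both arms with IL-6, 6 of 7 were higher than in unstimulated cells and 0 lower. Of all genes, 23.4% were higher with IL-6 and 31.3% with the combination. With HGF 29.8% of all genes were higher and 32.8% lower. Over the 7 hours HGF raised Irgm1, most at 4 h, and Gbp7, most at 0.5 h, and lowered Iigp1, Igtp, Gbp3 and Gbp6. Both rises cross the labelling classes. By limma's F-test over 8 to 32 h, Gbp7 was lower with HGF (-0.33 at 32 h, adjusted p = 0.0179). Irgm1 was not called in that window (adjusted p = 0.216). The median difference over the 7 GTPases was 0.46 at 2 h and 0.41 at 4 h with IL-6, and 0.59 and 0.36 with the combination, where the median over all genes with IL-6 was -0.01 and 0.0. Against HGF, IL-6 gave 6 of 7 higher and Irgm1 lower, where 22.3% and 28.9% of all genes were. The Irgm1 call with HGF was lost without unstimulated 4 h replicate 1 (adjusted p = 0.0587), and the Gbp6 call with the combination without unstimulated 2 h replicate 1 (adjusted p = 0.0507).

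Iigp1, an immunity-related GTPase that disrupts parasite vacuoles, rose with IL-6 and fell with HGF. At 4 h its arrays read 12.43 and 12.49 with IL-6, 12.5 and 12.6 with the combination, 11.28 and 11.34 with HGF and 10.88 and 11.04 without stimulus. The IL-6 arms were thus about 1 unit or more above both others, with no overlap. The difference between IL-6 and unstimulated cells was 1.50 ± 0.09 (SE), or 2.83-fold (adjusted p = 3.7e-24). Against HGF, which shares the labelling class, IL-6 gave 1.35 at 2 h and 1.15 at 4 h (adjusted p at those hours 1.75e-15 and 1.64e-13). With HGF, Iigp1 then fell ahead of the other arms. At 24 h it was at 9.18 and 9.23 with HGF, 10.72 and 11.09 unstimulated, 11.69 and 11.73 with IL-6 and 10.75 and 10.59 with the combination.

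HGF differed from unstimulated cells by -1.70 ± 0.09 at that hour, a 3.25-fold lower level, and by -1.66 at 16 h. IL-6 stood 2.50 ± 0.09 above HGF, or 5.66-fold. Adding HGF to IL-6 left Iigp1 near the IL-6 level up to 8 h, at 12.03 and 11.97 against 12.0 and 11.99. From 16 h on the combination was lower than IL-6 alone, with differences of -0.60 at 16 h and -1.04 at 24 h (-1.06 ± 0.09 at 32 h, adjusted p over the hours 1.98e-15). A second Iigp1 probe set gave 1.56 for IL-6 at 4 h and -1.49 for HGF at 24 h.

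Gbp7, a guanylate-binding protein, was at 9.16 and 9.3 with IL-6 at 4 h, 9.01 and 9.28 with the combination, 8.31 and 8.34 with HGF and 8.01 and 8.36 unstimulated. The IL-6 difference was 1.04 ± 0.11 from unstimulated cells (adjusted p = 2.04e-12) and 0.91 from HGF (adjusted p = 3.18e-11). Irgm1, a regulatory GTPase of autophagy, reversed with time. At 2 h IL-6 arrays read 10.83 and 10.91 against 10.21 and 10.26 unstimulated, a rise of 0.64 ± 0.08 (adjusted p = 4.29e-10). At 32 h they read 9.46 and 9.32 against 9.83 and 9.9, a difference of -0.47, with no overlap at either hour. Against HGF, Irgm1 with IL-6 was 0.45 higher at 2 h and differed by -0.53 at 8 h.

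Igtp, a further member of the immunity-related family, rose by 0.41 with IL-6 at 4 h (adjusted p = 0.000115) and was 0.66 higher than with HGF at 2 h. Gbp2 rose by 0.49 at 8 h (adjusted p = 0.00256), and Gbp6 by 0.68 at 4 h (adjusted p = 0.00368). Gbp3 differed by 0.30 with IL-6 and was not called (adjusted p = 0.648), and fell by 0.58 with HGF at 24 h. Restricted to 8 to 32 h, 2 of 7 GTPases were higher with IL-6, Iigp1 and Gbp2, and Irgm1 was lower, while HGF gave 0 higher and 5 lower. Of all genes, 18.7% were higher and 23.3% lower with IL-6, and 27.2% and 27.9% with HGF. The step from 4 to 8 h in unstimulated cells, less that in the stimulated arms, was 0.88 for Iigp1, 0.70 for Gbp7 and 0.44 for Irgm1. Changes within the stimulated arms enter these values.

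The antiviral effectors went in both directions with IL-6. IL-6 raised 6 of 16 tested members, Ifit1, Ifih1, Rsad2, Eif2ak2, Parp14 and Trim21, and lowered 6, Ifit2, Oasl2, Usp18, Bst2, Dhx58 and Adar. Of all genes, 23.4% were higher and 31.7% lower. Oasl2, Bst2, Dhx58 and Adar fell most at 0.5 or 2 h, across the labelling classes. By limma's F-test over 8 to 32 h, Oasl2, Bst2 and Dhx58 were not called (adjusted p = 0.333, 0.0729 and 0.601), and Adar was called higher. HGF raised Ifit2, Eif2ak2, Adar and Trim21 and lowered 8, against 29.8% and 32.8% of all genes. The Trim21 call with HGF was lost without unstimulated 4 h replicate 1 and without HGF 4 h replicate 2 (adjusted p up to 0.181). The combination raised 6 and lowered 9, against 31.3% and 36.7% of all genes. Against HGF, IL-6 gave 13 of 16 higher and 1, Adar, lower, where 22.3% and 28.9% of all genes were.

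Eif2ak2, the kinase PKR that halts translation on sensing double-stranded RNA, was at 8.77 and 8.89 with IL-6 at 2 h and 8.94 and 9.04 with the combination. HGF arrays read 8.41 and 8.3 and unstimulated arrays 7.68 and 7.95. All 3 stimulated arms were above the unstimulated one, by 1.01 ± 0.11 for IL-6 (adjusted p = 1.5e-13). With HGF the largest difference was 0.74, at 4 h. From 4 to 8 h Eif2ak2 changed by 0.65 more in unstimulated cells than on average in the stimulated arms. The unstimulated means were 7.87 and 7.96. IL-6 went from 8.65 to 8.04, HGF from 8.61 to 8.35 and the combination from 8.94 to 8.11, so falls in the stimulated arms enter that value. For IL-6 at 2 h, 2 further Eif2ak2 probe sets gave 0.46 and 0.32. Trim21, an intracellular antibody receptor, rose by 0.62 at 2 h (8.31 and 8.38 against 7.68 and 7.77, adjusted p = 1.49e-05), where a second probe set gave 0.12. Parp14, an ADP-ribosyltransferase, rose by 0.65 at 2 h (adjusted p = 8.46e-11) and was 0.67 higher than with HGF at 32 h.

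Ifit1 and Rsad2, singled out here after their values were seen, were higher with IL-6 than in unstimulated cells at 2 h and lower at 8 h. For Rsad2 the difference at 2 h was 0.89. Ifit1, which binds viral RNA caps, was at 7.96 and 8.2 with IL-6 at 2 h against 7.34 and 7.41 unstimulated, a difference of 0.70 (adjusted p over the hours 0.00802). With HGF it fell by 1.26 at 16 h (adjusted p = 2.88e-08), and IL-6 exceeded HGF by 1.31 at 24 h. At 8 h Ifit1, Ifit3 and Rsad2 with IL-6 differed from unstimulated cells by -0.56, -0.64 and -0.70. The 2 unstimulated arrays of that hour themselves stood apart, at 7.47 and 6.85 for Ifit1, 7.27 and 6.54 for Ifit3 and 9.34 and 8.45 for Rsad2. By limma's F-test over 8 to 32 h, Ifit1 was not called with IL-6 (adjusted p = 0.063) and Rsad2 was called lower (adjusted p = 0.0174). At 24 h Ifit1 and Rsad2 with IL-6 were 0.24 and 0.23 above unstimulated cells. Ifit2, a relative, rose by 1.08 at 16 h of culture without stimulus.

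Usp18, the protease that removes Isg15 and restrains interferon receptor signalling, fell in all 3 arms. At 8 h it was at 10.56 and 10.41 in unstimulated cells, 10.14 and 10.34 with HGF, 10.02 and 9.84 with IL-6 and 9.61 and 9.63 with the combination. The combination was lowest and overlapped with no other arm. It differed from unstimulated cells by -0.87 (adjusted p = 2.5e-12), against -0.56 for IL-6 (adjusted p = 3.42e-06). Bst2 (tetherin), which holds budding virus at the membrane, fell by 0.29 with HGF at 24 h (adjusted p = 4.32e-09) and was 0.28 higher with IL-6 than with HGF at 16 h.

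Oasl2, an oligoadenylate synthetase-like protein, fell by 1.07 with HGF at 16 h, when IL-6 exceeded HGF by 1.35 (adjusted p = 1.33e-06). The combination then differed from IL-6 alone by -0.77. Adar, which edits adenosine in double-stranded RNA, was 0.49 higher with HGF at 16 h, but a second Adar probe set gave -0.23. Mx2 and Oas1a were not called with either stimulus alone. Restricted to 8 to 32 h, IL-6 gave 3 antiviral members higher, Adar, Eif2ak2 and Parp14, and 4 lower, Ifit2, Ifit3, Rsad2 and Usp18. For 16 tested members, these counts are close to the 18.7% and 23.3% of all genes called.

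**Figure D3:**
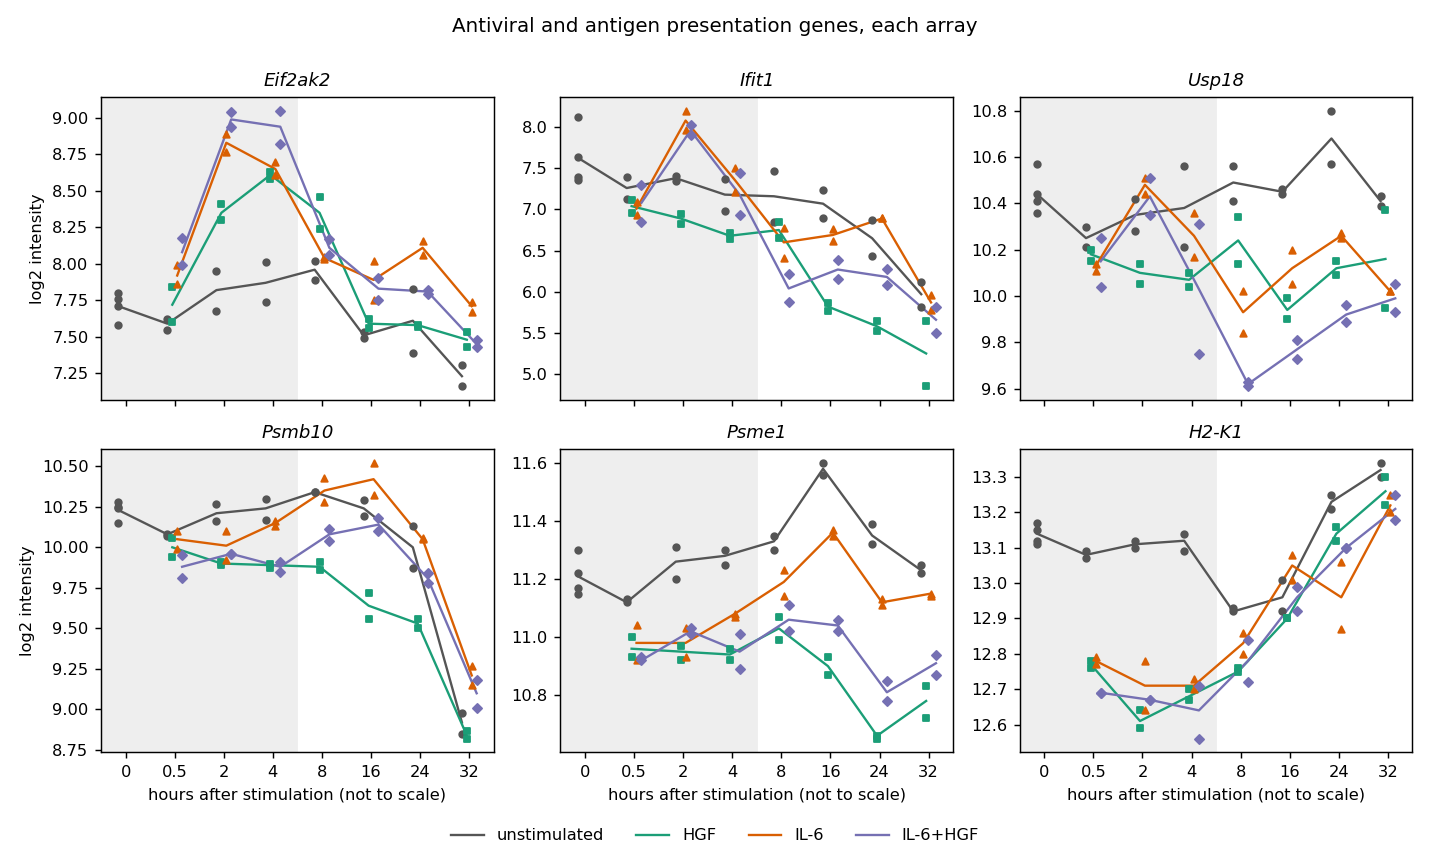
Log2 intensity (vertical axis) against hours after stimulation (horizontal axis) for Eif2ak2, Ifit1, Usp18, Psmb10, Psme1 and H2-K1; points are single arrays, lines join the arm means, and grey marks 0 to 4 h. Psme1 is lowest with HGF at 24 h, at 10.65 and 10.66, and Usp18 lowest with the combination at 8 h.

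Antigen presentation genes mostly fell with HGF: 9 of 11 fell, 1, Nlrc5, rose, and B2m was not called. Of all genes, 32.8% were lower and 29.8% higher. IL-6 raised 6, Psmb8, Psmb9, Psmb10, Tap1, Tap2 and Nlrc5, and lowered 5, Psme1, Tapbp, B2m, H2-K1 and H2-D1. Of all genes, 23.4% were higher and 31.7% lower. The combination raised 4 and lowered 6, against 31.3% and 36.7% of all genes. Over 8 to 32 h, HGF gave 1 higher and 8 lower, IL-6 gave 5 higher and 4 lower, and the combination 4 and 4. The shares of all genes, in that order, were 27.2% and 27.9%, 18.7% and 23.3%, and 28.5% and 28.7%. Tap2, counted among the falls with HGF for -0.34 at 4 h across the labelling classes, was not called over 8 to 32 h (0.15 at 24 h, adjusted p = 0.13). From 4 to 8 h it changed by -0.25 more in unstimulated cells than on average in the stimulated arms. IL-6 exceeded HGF for 9 of 11, and B2m and H2-K1 were lower, against 22.3% and 28.9% of all genes. The H2-K1 direction came from -0.17 at 24 h, which was -0.08 without IL-6 24 h replicate 1, the array that stood apart. At 16 h H2-K1 was 0.14 higher with IL-6 than with HGF, so its direction rested on that array. The median difference with HGF was -0.31 at 2 h, -0.34 at 4 h and -0.29 at 8 h, where over all genes it was -0.02, -0.01 and -0.01. With IL-6 it was -0.14 at 2 h, -0.09 at 4 h and 0.01 at 8 h, and reached 0.26 at 32 h, where over all genes it was -0.01.

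The inducible proteasome subunits, which change the peptides cut for MHC class I, all fell with HGF. At 16 h Psmb10 was at 9.72 and 9.56 with HGF, 10.29 and 10.19 unstimulated, 10.52 and 10.32 with IL-6 and 10.1 and 10.18 with the combination. HGF was below all others without overlap, where it had fallen by 0.60 from unstimulated cells (adjusted p = 2.8e-13), and IL-6 was 0.78 above HGF (adjusted p = 8.13e-15). Psmb9 was at 7.24 and 7.18 with HGF against 7.92 and 7.84, and Psmb8 at 9.47 and 9.39 against 9.81 and 9.85. Psmb9 thus fell by 0.68 and Psmb8 fell by 0.40. With IL-6, Psmb8 rose by 0.28 at 32 h (adjusted p = 0.00945). The Psmb9 call with IL-6 was lost in 8 of 60 refits that each left out 1 array.

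Of the constitutive subunits that these replace, Psmb6 differed by -0.42 at 16 h and Psmb7 by -0.61 at 2 h with HGF, and Psmb5 by 0.19. The Psmb7 difference at 2 h crosses the labelling classes, whose part was not tested. Psme1, a subunit of the proteasome activator PA28, was at 10.65 and 10.66 with HGF at 24 h, 10.78 and 10.85 with the combination, 11.13 and 11.11 with IL-6 and 11.32 and 11.39 unstimulated. The 4 arms were ordered without overlap. HGF differed by -0.70 ± 0.05 (adjusted p = 8.61e-22), a 1.62-fold lower level.

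Tap1, a subunit of the peptide transporter, was raised by IL-6 and lowered by HGF at the same hour. At 4 h it was at 8.6 and 8.63 with IL-6, 8.2 and 8.18 unstimulated, 8.15 and 8.31 with the combination and 7.55 and 7.66 with HGF. Tap1 rose by 0.43 with IL-6 (adjusted p = 1.01e-05), fell by 0.58 with HGF (adjusted p = 1.87e-08), and with IL-6 stood 1.01 above HGF (adjusted p = 3.24e-15). The combination overlapped with unstimulated cells. A dimmer second Tap1 probe set gave -0.10 for IL-6 at that hour. Tap2, the other subunit and chosen after its values were seen, was 0.31 higher with IL-6 at 16 h.

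Nlrc5, the transactivator of MHC class I genes, was at 8.32 and 8.35 with IL-6 at 2 h against 7.5 and 7.55 unstimulated, a rise of 0.81 ± 0.07 (adjusted p = 7.41e-16). It was also 0.48 higher at 32 h, and was 0.70 above HGF at 32 h. The MHC class I heavy chains were lower in all 3 arms. H2-K1 differed from unstimulated cells by -0.50 with HGF and -0.40 with IL-6 at 2 h and by -0.48 with the combination at 4 h, and H2-D1 by -0.52, -0.42 and -0.57. These differences cross the labelling classes: the unstimulated H2-K1 arrays read 13.14 and 13.09 at 4 h and 12.92 and 12.93 at 8 h. Between those hours unstimulated cells changed by -0.30 more for H2-K1, and by -0.40 more for H2-D1, than the stimulated arms on average. Their probe sets can also take up each other's transcripts. B2m, the light chain, fell by 0.19 with IL-6 at 32 h.

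**Figure D4:**
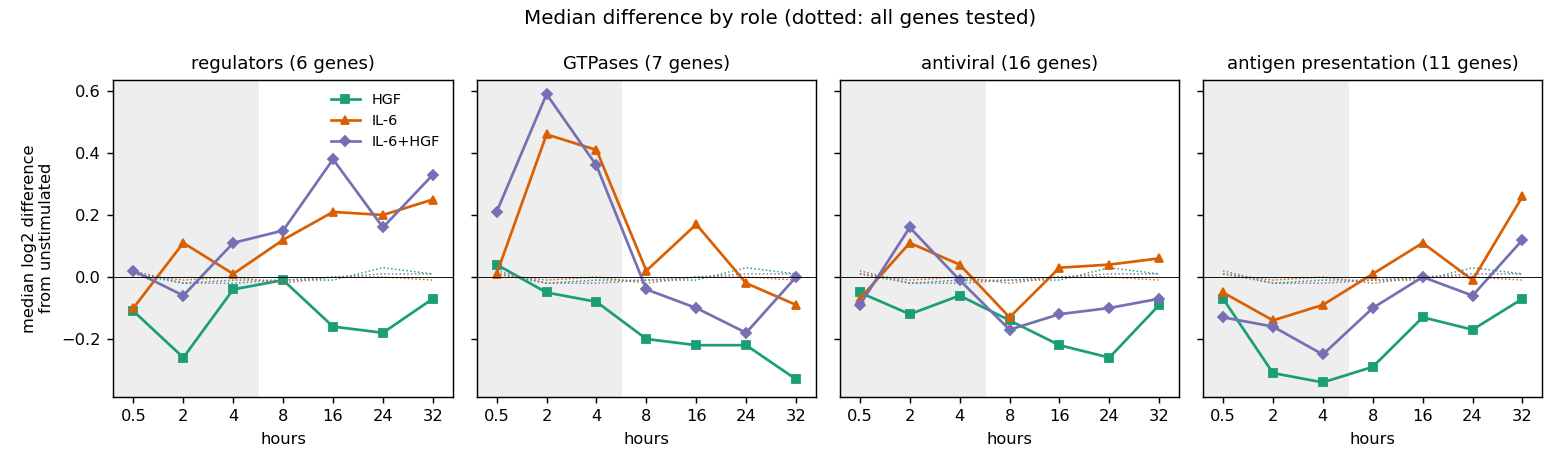
Median difference from unstimulated cells in log2 intensity (vertical axis) over the tested members of each role at each hour (horizontal axis), by arm, with the median of all genes dotted. The GTPase median reaches 0.59 with the combination at 2 h, and the antigen presentation median is -0.34 with HGF at 4 h.

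The combination was compared with each stimulus alone. Against IL-6, HGF lowered 2 of 6 regulators, 2 of 7 GTPases, 6 of 16 antiviral and 6 of 11 antigen presentation members. Of all genes, 20.9% were lower, and the regulator and GTPase counts lay near that share. Besides Iigp1, the members lowered included Psmb9, with a difference of -0.46 at 4 h, Tap1 with -0.38 at 4 h, Psme1 with -0.32 at 16 h, Ifit2 with -0.39 at 24 h and Irf1 with -0.30 at 2 h. The Tap1 call was lost without IL-6+HGF 4 h replicate 1 (adjusted p = 0.084). Gbp6 differed by -0.60 at 4 h, and this call was lost in 4 of 60 refits without 1 array. Irf7 was called lower, with that call lost in 5 refits. Gbp2 and H2-K1 were called higher and lost the call in 11 and 10 refits. Irf2, 0.32 higher at 16 h, and Adar, 0.29 higher at 16 h, made up the rest of the 4 higher members.

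**Figure D5:**
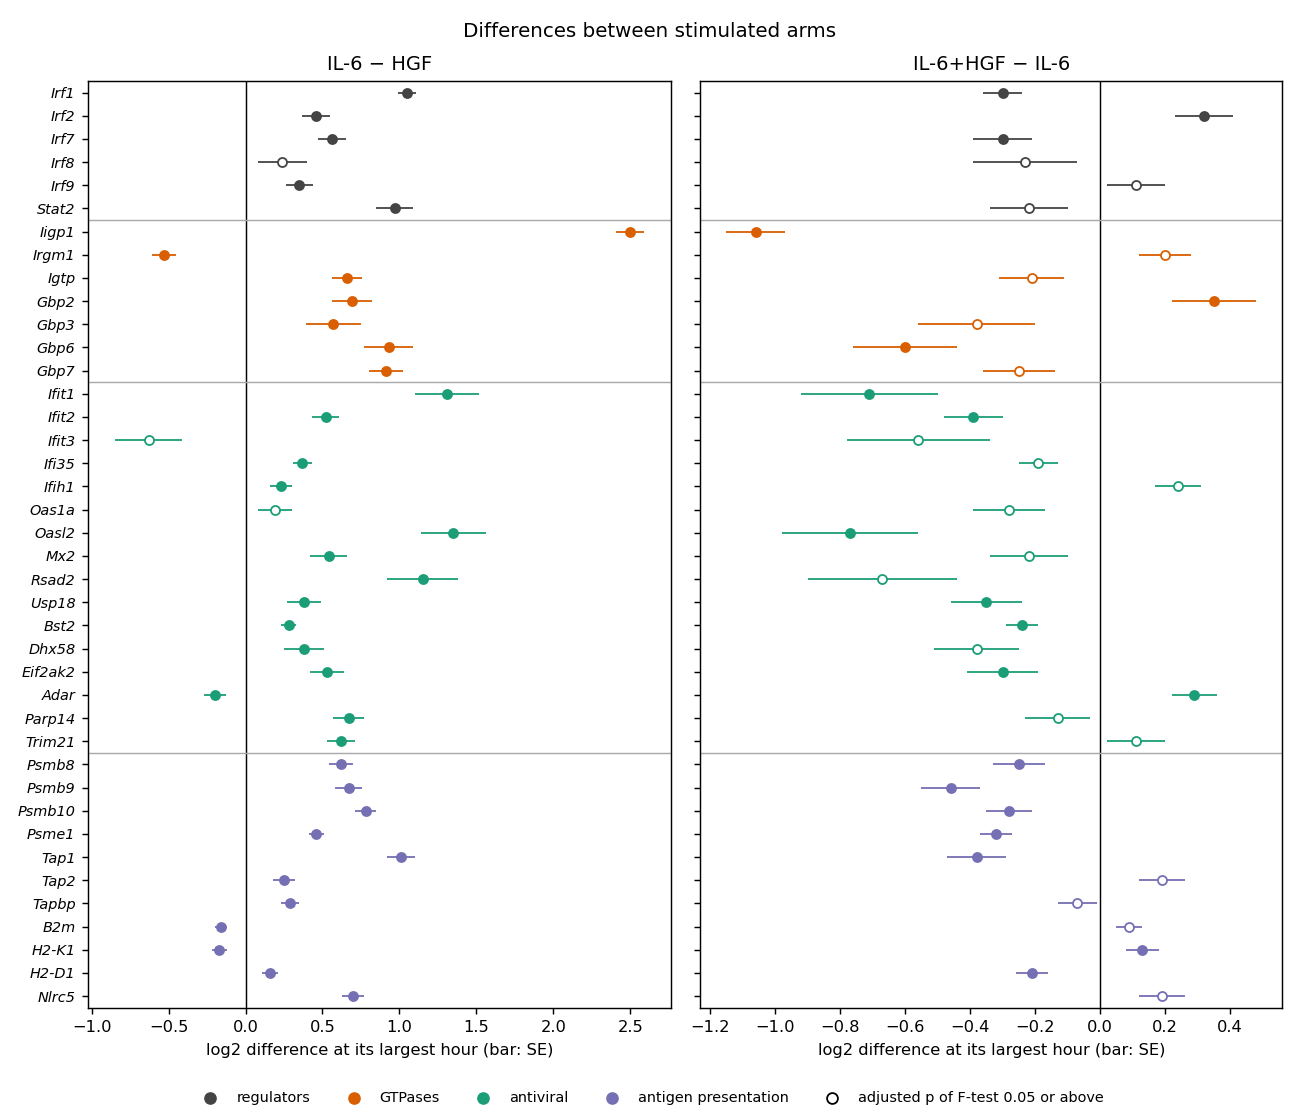
Difference in log2 intensity (horizontal axis) for each tested member between IL-6 and HGF and between IL-6+HGF and IL-6, at the hour of its largest size, with SE bars; open symbols have an adjusted p of 0.05 or more. Of 40 members, 33 are called to the right for IL-6 against HGF, with Iigp1 at 2.50, and 16 to the left for the combination against IL-6.

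The interaction asks whether the effect of both stimuli differs from the sum of the 2 single effects. It was called positive for 15 of 40 members and negative for 1, Eif2ak2, against 18.9% and 14.6% of all genes. The negative one turned to 0.12 with a second Eif2ak2 probe set. Over 8 to 32 h alone it was positive for 9 and negative for 1, against 11.4% and 8.28%. By role, 9 of 11 antigen presentation genes were positive, and 3 of 6 regulators, 1 of 7 GTPases and 2 of 16 antiviral genes. Over 8 to 32 h these were 6 of 11, 2 of 6, 1 of 7 and 0 of 16. For Iigp1 at 16 h, the unstimulated arrays were at 11.59 and 11.42, HGF at 9.85 and 9.84, IL-6 at 11.97 and 12.37 and the combination at 11.46 and 11.69. The combination thus lay at the unstimulated level although HGF alone was far below it. The interaction was 1.06 ± 0.13 (adjusted p = 5.9e-08). For Psmb9 at 16 h it was 0.61 (adjusted p = 0.000197), for Psme1 at 24 h 0.39 and for Nlrc5 at 32 h 0.32.

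Culture without stimulus changed most members. Against 0 h, 12 of 40 were higher and 26 lower, where 40.4% and 34.6% of all genes were, and Irf8 and Gbp2 were not called. Without unstimulated 0 h replicate 3, on which 26 of the 40 members had their highest 0 h value, against 28.5% of all genes, the counts were 12 and 25. Hours from 8 on have another labelling class than 0 h, whose part in these changes was not tested. Iigp1 was at 11.02, 11.1, 11.31 and 11.15 at 0 h and at 8.91 and 9.07 at 32 h, a difference of -2.16 ± 0.08 (adjusted p = 8.37e-27). Most of that decline lay between 24 and 32 h, within 1 class, since the arrays still read 10.72 and 11.09 at 24 h. Psmb10 fell by 1.31, Irf7 fell by 1.18 and Igtp fell by 1.01, while B2m rose by 0.31. The summed Kupffer cell markers also went from 9.96 at 0 h to 9.3 at 32 h, and their part in these falls was not tested.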

How the data were processed

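The table holds log2 intensities that the authors deposited for 45101 probe sets on 60 Affymetrix mouse arrays; biotinylated cRNA was made with a one-cycle labelling assay, per the labels' protocols. The summarisation and normalization are not given in the sources used here. Medians by array lay between 4.88 and 4.97, and no array pair of 1770 was identical. Precision is limited by how many arrays there are.

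Probe sets listed with 1 symbol (34958) were used, 1 per gene with the highest mean over all arrays. Genes had to pass the 40th percentile within an array (4.28 to 4.4) in 2 arrays or more. limma 3.58.1 in R 4.3.3 fitted 1 mean per group over all arrays (31 residual degrees of freedom, trended prior), and was tested on simulated data. Each comparison used a moderated F-test over 7 hours with Benjamini-Hochberg adjustment over 14513 genes. Single-hour p-values came from that fit.

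The members and lists, and the other pathway lists, were chosen with earlier results of these data known. Values by array are given for the 4 members per role with the smallest adjusted p for IL-6 against unstimulated cells and the 4 for IL-6+HGF against IL-6, for the largest interaction per role, and for Irf1, Stat2, Tap1, Psmb8, B2m and H2-K1; from other lists at most 4 genes are named, by the first of these p-values. Members outside this rule were chosen after their values were seen. Alternatives covered normalization, filter, probe set choice, prior, hours, minimum change, replicate block and leaving out each array. Promoters are RefSeq's, GRCm38.p6.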

Additional observations from a re-analysis of the deposited data

Results flagged for a closer look

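On unstimulated 0 h replicate 3 the level of 3 members stood far from the other 0 h arrays by Dixon's criterion for 4 samples: Igtp at 10.91, Gbp6 at 7.37 and Trim21 at 8.04. Chance places about 1 in 20 groups past that criterion, and the 0 h group was the only one with enough arrays to apply it.

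The response to both stimuli differed from the sum of the single responses, by limma's F-test of the interaction, for 13 named members. At 0.5 to 4 h, where the unstimulated arrays have another labelling class, the largest interactions were 0.87 for Irf7 at 2 h, 1.03 for Oasl2 at 2 h, 0.54 for Stat2 at 4 h, 0.46 for H2-K1 at 2 h, 0.45 for H2-D1 at 4 h and 0.40 for Tap1 at 2 h. The Tap1 call was lost in 35 of 60 refits that each left out 1 array. At 8 to 32 h they were 1.06 for Iigp1, 0.61 for Psmb9, 0.32 for Psmb10 and 0.29 for Irf1 at 16 h, 0.39 for Psme1 at 24 h, and 0.32 for Nlrc5 and -0.50 for Eif2ak2 at 32 h. The Irf1 call was lost in 3 refits.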

How the results depend on the processing

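The numbers of members called kept within 1.5 times of those reported under a filter at the 60th percentile, no filter, a robust variance and a fit of the compared arms only. With a replicate block, IL-6 gave 22 members higher and 13 lower than unstimulated cells and HGF 8 and 26, and no count moved by over 1.5 times; same-numbered arrays did not deviate together (378 group pairs, correlations of -0.27 to 0.25).

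HGF higher, 7 as reported, became 4 with the mean over probe sets, 4 with the second probe set, 4 over 8 to 32 h and 2 over 16 to 32 h. Over 8 to 32 h, IL-6 higher became 14, IL-6+HGF against IL-6 became 2 higher and 10 lower, and the positive interactions became 9. Over 16 to 32 h, IL-6 gave 14 higher and 7 lower, IL-6+HGF 12 higher, IL-6+HGF against HGF 1 lower, and the positive interactions became 6. With quantile normalization, IL-6 against HGF gave 2 lower, IL-6+HGF against HGF 5 lower, and the interaction 3 negative. With the second probe set, IL-6+HGF gave 6 lower than HGF and 1 higher than IL-6; it and the mean over probe sets gave 0 negative interactions. Without the variance trend, 2 were higher than with IL-6 alone.

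Requiring a difference of 0.5 left, higher and lower, 1 and 15 for HGF, 12 and 3 for IL-6, 12 and 9 for IL-6+HGF, 14 and 1 for IL-6+HGF against HGF, 0 and 4 against IL-6, 6 and 0 for the interaction, 2 and 17 for culture time, and 1 lower for IL-6 against HGF. With each array left out in turn, the counts ranged, higher and lower, over 5 to 9 and 23 to 28 for HGF, 20 to 24 and 10 to 15 for IL-6, 19 to 21 and 15 to 18 for IL-6+HGF, 32 to 34 and 3 to 6 for IL-6 against HGF, 24 to 27 and 2 to 5 for IL-6+HGF against HGF, 2 to 6 and 13 to 20 against IL-6, 12 to 17 and 1 to 3 for the interaction, and 10 to 12 and 25 to 27 for culture time. The 5 came without HGF 2 h replicate 1, and the 2 higher than IL-6 without IL-6 0.5 h replicate 1 or IL-6+HGF 0.5 h or 16 h replicate 2.

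The second probe set turned 7 differences: Adar to -0.23 with HGF, -0.07 with IL-6+HGF and -0.14 for IL-6+HGF against IL-6, all at 16 h; Tap1 to -0.10 with IL-6 at 4 h, -0.36 with IL-6+HGF at 16 h and -0.08 for the interaction at 2 h; and the Eif2ak2 interaction to 0.12 at 32 h. The cause was not tested. Of the other named differences under all alternatives, 11361 kept direction and call and 211 lost the call. Of those kept, 9695 came from refits that left out 1 array, often an array outside the comparison. With a difference of 0.5 required, 80 of 163 lost the call.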

Other observations

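Interferon-stimulated genes outside the members were read from a list of 45, of which 32 were tested. With IL-6, 14 were higher and 10 lower than in unstimulated cells, against 23.4% and 31.7% of all genes. With HGF, 3 were higher and 19 lower, against 29.8% and 32.8%. IL-6 exceeded HGF for 21 and was below it for 5, against 22.3% and 28.9%. The chemokine Cxcl10, which attracts T cells, rose by 2.78 with IL-6 and by 1.34 with HGF at 2 h. By 4 h it differed between IL-6 and HGF by -1.45. Ly6e, Lgals3bp and Ifitm2 were lower than in unstimulated cells with both stimuli at 4 h. Ly6e differed by -0.96 with IL-6 and -1.19 with HGF, Lgals3bp by -0.76 and -0.92, and Ifitm2 by -0.73 and -0.91. These differences, and those of Cxcl10 at 2 h, cross the labelling classes, whose part was not tested.

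Peptide-loading and class I-related genes, 16 tested of 20, had 8 higher and 7 lower with HGF and 7 higher and 5 lower with IL-6. Of all genes, 29.8% were higher and 32.8% lower with HGF, and 23.4% and 31.7% with IL-6. MHC class II genes, 6 tested of 7, had 0 called with IL-6 and 1 lower with HGF by limma's F-test; at an unadjusted p under 0.05 these were 0 and 2.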
